A study of Mus musculus with 12 samples.

Results

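Levels of 8 transcription factors of gut regional and enterocyte identity were followed in the jejunum of mice given the pentapeptide IIAEK: Gata4, Gata6, Cdx1, Cdx2, Hnf4a, Hnf4g, Onecut2 and Pdx1. They were found by matching the RefSeq accession of each array probe to these symbols, which gave 10 probes for the 8 genes among 56605 probes. All 8 genes were above background often enough to be tested, among 27565 genes and unnamed probes. Pdx1 was so only through the groups in which it was highest, as given below.

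Total RNA of 12 male mice was hybridised to 12 one-colour arrays, 3 in each of 4 groups. The groups were IAP knockout (Akp3-/-) mice given IIAEK, IAP knockout mice given vehicle, wild-type mice given IIAEK, and wild-type mice given vehicle. IIAEK, named by its 5 residues, is a cholesterol-lowering peptide, given by mouth at 600 mg per kg body weight once a day for 14 days from 7 weeks of age. All 4 groups received the vehicle, carboxymethylcellulose sodium salt at 5 g/L, and were fasted for 8 h before the jejunum was taken into RNAlater. A label field of the IIAEK groups gives the duration in weeks, while the titles and the protocol give days. IAP is intestinal alkaline phosphatase, a brush border enzyme encoded by Akp3. The labels give neither the strain nor whether the deletion covers every tissue. The design implies 4 comparisons between groups, IIAEK against vehicle in each genotype and knockout against wild type under each treatment, and the interaction of genotype and treatment.

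GATA4 and GATA6 are zinc finger factors. GATA4 is made in duodenum and jejunum but not in distal ileum, and its loss from mouse jejunum brings on ileal genes there, whereas GATA6 is made along the whole intestine. CDX1 and CDX2 are caudal homeobox factors that give the epithelium its intestinal rather than gastric identity, and HNF4A and HNF4G are paired nuclear receptors that hold the enterocyte programme, including brush border and lipid handling genes. ONECUT2 is a cut homeobox factor made in proximal small intestine, and PDX1 is a homeobox factor of pancreas, antral stomach and duodenum whose level falls along the small intestine. Pdx1 and Cdx2 are neighbours on mouse chromosome 5, with 0 protein-coding genes between them in the RefSeq annotation.

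Regulatory sequence is shown for 4 genes whose levels are described below: Cdx2, Hnf4a, Lct and Slc10a2. Cdx2 went with Gata4 over the arrays, and Hnf4a followed both less closely. Lct encodes the proximal brush border enzyme lactase, and Slc10a2 encodes the ileal bile acid transporter. Each window runs from 250 bases before to 50 bases after a RefSeq gene start on GRCm38.p6, written in the gene's direction. Capitals mark matches on either strand. The letters searched were AGATAA and likewise TGATAA, next AGATAG and likewise TGATAG for GATA factors, TTTATTG and likewise TTTATGA for CDX factors, CAAAGTCC for HNF4 factors, and GTTAAT as part of the site of HNF1 factors. In these windows 0 pairs of matches overlap.
Cdx2, chr5:147307200-147307499, minus strand: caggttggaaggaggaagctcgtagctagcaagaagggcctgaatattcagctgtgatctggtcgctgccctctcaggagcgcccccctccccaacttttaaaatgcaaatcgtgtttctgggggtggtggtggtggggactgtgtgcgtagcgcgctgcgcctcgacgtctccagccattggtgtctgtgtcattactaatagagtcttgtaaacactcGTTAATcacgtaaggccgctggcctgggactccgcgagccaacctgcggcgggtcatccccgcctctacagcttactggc
Hnf4a, chr2:163506607-163506906, plus strand: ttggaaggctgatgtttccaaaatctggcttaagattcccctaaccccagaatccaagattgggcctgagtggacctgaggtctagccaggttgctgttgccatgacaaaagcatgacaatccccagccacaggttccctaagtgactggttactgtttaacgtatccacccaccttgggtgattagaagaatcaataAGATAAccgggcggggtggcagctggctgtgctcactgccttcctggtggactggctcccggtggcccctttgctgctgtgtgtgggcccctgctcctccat
Hnf4a, chr2:163546905-163547204, plus strand: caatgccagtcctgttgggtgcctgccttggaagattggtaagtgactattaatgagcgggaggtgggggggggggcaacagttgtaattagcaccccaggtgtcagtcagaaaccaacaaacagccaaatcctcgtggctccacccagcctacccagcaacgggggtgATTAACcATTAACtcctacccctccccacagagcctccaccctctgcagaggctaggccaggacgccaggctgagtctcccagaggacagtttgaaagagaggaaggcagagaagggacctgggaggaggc
Lct, chr1:128328269-128328568, minus strand: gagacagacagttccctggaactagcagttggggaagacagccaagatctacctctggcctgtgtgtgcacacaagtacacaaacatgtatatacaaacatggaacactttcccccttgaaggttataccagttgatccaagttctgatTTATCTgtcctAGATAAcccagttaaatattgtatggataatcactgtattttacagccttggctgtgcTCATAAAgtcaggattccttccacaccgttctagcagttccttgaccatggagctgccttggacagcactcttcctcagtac
Slc10a2, chr8:5105238-5105537, minus strand: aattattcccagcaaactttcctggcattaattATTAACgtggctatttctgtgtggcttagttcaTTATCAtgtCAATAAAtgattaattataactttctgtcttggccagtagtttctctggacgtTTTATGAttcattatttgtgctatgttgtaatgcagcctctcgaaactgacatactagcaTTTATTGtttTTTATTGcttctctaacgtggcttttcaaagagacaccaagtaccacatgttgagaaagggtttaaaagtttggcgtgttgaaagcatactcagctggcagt
Positions of a match's first base are counted from the gene start, with negative numbers before it. The Cdx2 window held a GTTAAT match at -30. The upstream Hnf4a window held a GATA match at -52, and the downstream Hnf4a window held 2 HNF1 matches at -81 and -74. In the Lct window there were 2 GATA matches at -101 and -90 and a CDX match at -32. The Slc10a2 window held 4 CDX matches, a GATA match and an HNF1 match. Among all 32851 promoter windows of the same length, 29.8% held a GATA match, 8.03% a CDX match, 1.42% the HNF4 letters and 7.1% the HNF1 letters. A match is a run of letters, not a bound site. Of the members, Cdx2, Hnf4a and Pdx1 were in the sequence table, and the Pdx1 window held no match.

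Levels are given as the log2 of the array's processed signal minus the 75th percentile of that array, so that 0 is the 75th percentile and each unit is a doubling. Levels of different probes depend on the probe and are not compared. The arrays were alike in quality, with 75th percentiles of 575 to 815 intensity units, 60.0 to 67.1% of probes well above background, and correlations between arrays of 0.978 to 0.992 within groups and 0.965 to 0.994 between groups. The number of arrays limits the precision, and the p-values measure the spread between these mice. By its brighter probe, the targeted gene Akp3 was well above background on 0 of 6 knockout arrays and on 5 of 6 wild-type arrays. A second Akp3 probe was so on 2 of 12 arrays, both of wild-type mice given IIAEK. Knockout minus wild type by the brighter probe was -1.69 ± 0.78 (SE) on vehicle and -4.40 ± 0.78 on IIAEK (limma, adjusted p = 0.441 and 0.393). Whether the probes lie in the deleted part is not given in the sources used here. On 2 arrays the exocrine pancreas genes stood apart. Their mean, centred on the 12 arrays, was 7.89 in the third wild-type mouse given IIAEK and 3.46 in the third knockout mouse on vehicle, against -2.22 to 0.68 in the other 10. Some changes that moved by over 1.5 times without these arrays are given both ways below. A value given only one way is not thereby shown to be stable. Slide 1 held 2 knockout arrays with IIAEK, 2 knockout arrays on vehicle and 1 wild-type array of each treatment, and slide 2 held 1, 1, 2 and 2, so differences within a slide rest on 1 or 2 arrays a side and have no test.

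None of the 8 factors differed between groups at an adjusted p under 0.05 in any comparison (limma, Benjamini-Hochberg over 27565 genes). The share of all genes called at that threshold was itself 0% for IIAEK in knockout mice, for IIAEK in wild-type mice, for genotype on IIAEK, for genotype on vehicle, for the interaction and for the average IIAEK effect. It was 0.00363% for the average genotype effect, where Glrp1 was the single gene called. At an unadjusted p under 0.05, 0 of 8 factors passed for IIAEK in knockout mice, where 4.42% of all genes did, and 2 of 8 (Hnf4g, Pdx1) for IIAEK in wild-type mice, where 13% did. For knockout against wild type, 1 of 8 passed on IIAEK (Pdx1, beside 7.66% of all genes) and 1 on vehicle (Hnf4g, beside 11.4%). For the interaction 2 of 8 passed, again Hnf4g and Pdx1, beside 15.1% of all genes, and none passed for the average genotype effect (5.37%) or the average IIAEK effect (3.4%). Read against these shares, counts of 0 to 2 among 8 are no result about the factors as a set.

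**Figure D1:**
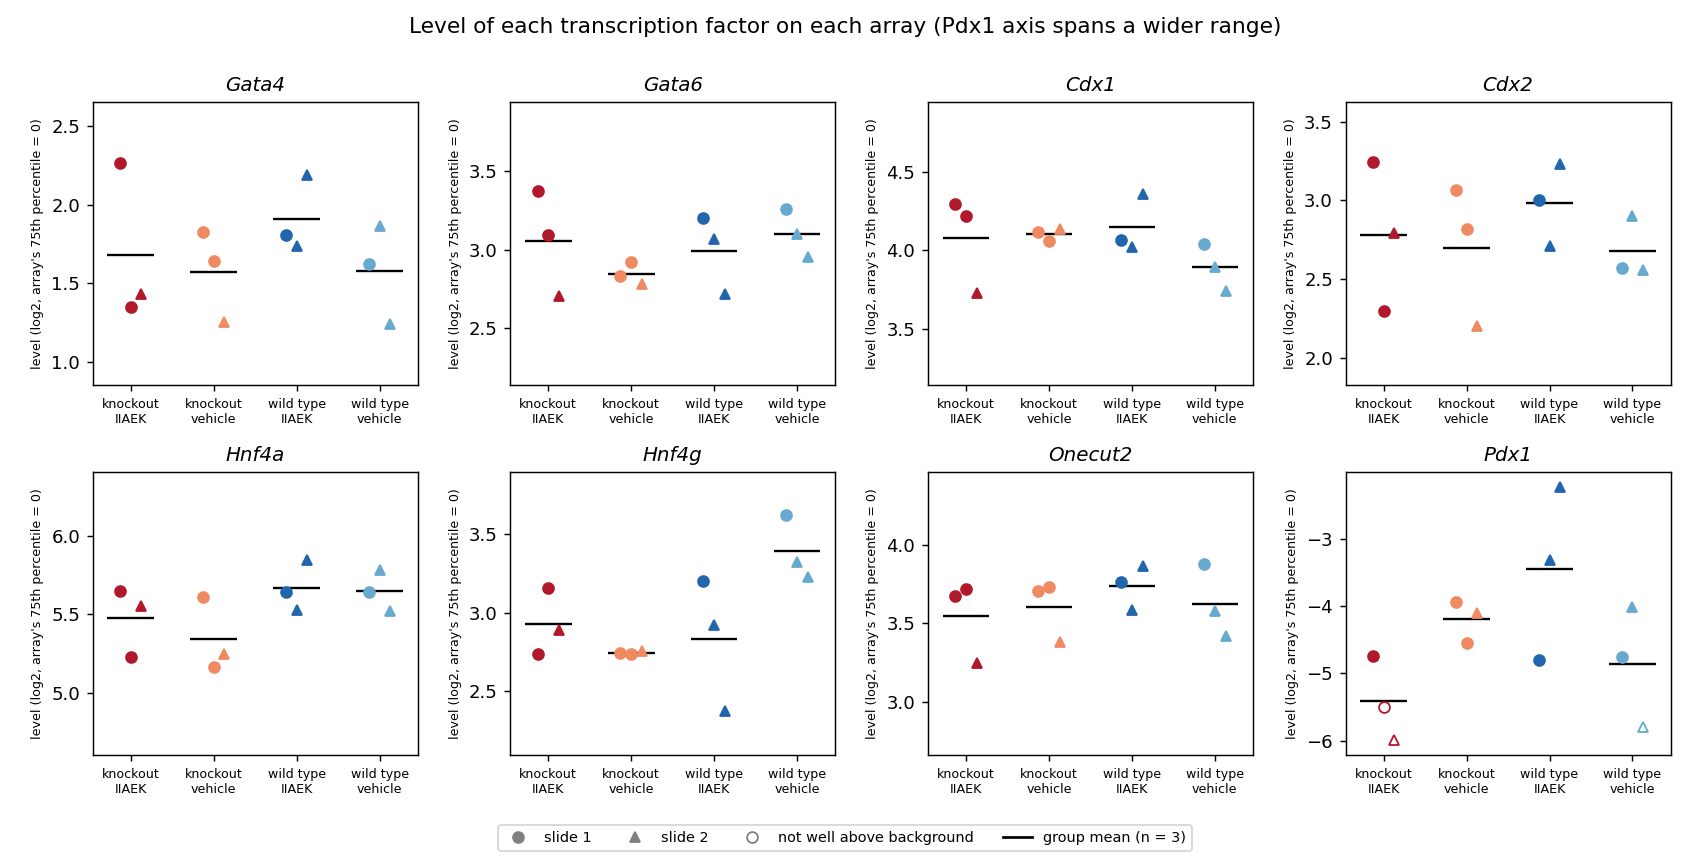
Level of each of the 8 transcription factors (log2 of signal over the array's 75th percentile) on each array, with knockout left of wild type and IIAEK left of vehicle; circles are slide 1, triangles slide 2, open symbols are not well above background and bars are group means. The 3 wild-type vehicle arrays lie above the other 9 for Hnf4g, and the groups mix for Gata4, Cdx2 and Onecut2.

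Gata4, the GATA factor of the proximal gut, was close to level between the groups and spread within them. In knockout mice, Gata4 was at 2.26, 1.35 and 1.43 with IIAEK and at 1.82, 1.64 and 1.25 on vehicle. In wild-type mice, Gata4 was at 1.81, 1.73 and 2.19 with IIAEK and at 1.62, 1.87 and 1.24 on vehicle. The lowest and the highest of the 12 arrays, 1.24 and 2.26, differed 2.03-fold, and all 4 groups overlapped. The log2 change with IIAEK was 0.11 ± 0.26 (SE) in knockout mice (adjusted p = 0.956) and 0.33 ± 0.26 in wild-type mice (adjusted p = 0.534). Between genotypes, knockout minus wild type was -0.23 on IIAEK (95% interval -0.81 to 0.35) and -0.003 on vehicle (-0.58 to 0.58). The interval on vehicle reached to 1.49-fold higher, so these arrays do not exclude a change of that size. A second Gata4 probe lay near background, at -5.77 to -4.41, and was well above it on 10 of 12 arrays.

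Gata6, the GATA factor made along the whole intestine, lay between 2.71 and 3.37 on the 12 arrays. In knockout mice, Gata6 was at 3.37, 3.1 and 2.71 with IIAEK and at 2.84, 2.92 and 2.78 on vehicle. In wild-type mice, Gata6 was at 3.20, 3.07 and 2.72 with IIAEK and at 3.26, 3.1 and 2.95 on vehicle. The 3 knockout arrays on vehicle lay below all 3 wild-type arrays on vehicle, by 0.26 ± 0.19 (SE) in the mean, at an adjusted p of 0.573. With IIAEK the genotypes overlapped, and knockout minus wild type was 0.06 (adjusted p = 0.929). IIAEK minus vehicle was 0.21 in knockout mice and -0.11 in wild-type mice, with adjusted p-values of 0.91 and 0.781.

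Cdx1, the caudal factor that is strongest in crypts, had its lowest group mean in wild-type mice on vehicle. In knockout mice, Cdx1 was at 4.29, 4.22 and 3.73 with IIAEK and at 4.12, 4.06 and 4.14 on vehicle. In wild-type mice, Cdx1 was at 4.06, 4.02 and 4.36 with IIAEK and at 4.04, 3.90 and 3.74 on vehicle. All 3 knockout arrays on vehicle exceeded the 3 wild-type arrays on vehicle, by a mean of 0.21 ± 0.17 (SE; adjusted p = 0.607). The change with IIAEK was -0.03 in knockout mice (adjusted p = 0.986) and 0.26 in wild-type mice (adjusted p = 0.474), and the groups overlapped in both. Without the third IIAEK mouse the wild-type change was 0.149.

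Cdx2, the factor that fixes intestinal identity in mouse endoderm, had a wide spread inside each group. In knockout mice, Cdx2 was at 3.25, 2.29 and 2.79 with IIAEK and at 3.07, 2.82 and 2.20 on vehicle. In wild-type mice, Cdx2 was at 3.00, 2.71 and 3.23 with IIAEK and at 2.57, 2.90 and 2.56 on vehicle. Every pair of groups overlapped. IIAEK minus vehicle was 0.08 ± 0.27 (SE) in knockout mice and 0.30 ± 0.27 in wild-type mice, with adjusted p-values of 0.968 and 0.579. Without the third IIAEK mouse the wild-type change was 0.18. Knockout minus wild type was -0.20 on IIAEK (adjusted p = 0.827) and 0.02 on vehicle (adjusted p = 0.981).

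Hnf4a, a main regulator of enterocyte genes, had its 3 lowest arrays in knockout mice. In knockout mice, Hnf4a was at 5.65, 5.23 and 5.56 with IIAEK and at 5.61, 5.17 and 5.25 on vehicle. In wild-type mice, Hnf4a was at 5.64, 5.53 and 5.85 with IIAEK and at 5.64, 5.78 and 5.53 on vehicle. In each treatment the genotypes overlapped. Averaged over treatments, knockout minus wild type was -0.25 ± 0.12 (SE; 95% interval -0.51 to 0.01), with an unadjusted p of 0.059 and an adjusted p of 0.927. The change with IIAEK was 0.14 in knockout mice and 0.02 in wild-type mice (adjusted p = 0.922 and 0.962). A second Hnf4a probe, well above background on 12 of 12 arrays at -1.92 to -1.20, likewise overlapped between all groups.

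Hnf4g, the intestinal partner of Hnf4a, was the member with the clearest order of groups. In knockout mice, Hnf4g was at 2.74, 3.16 and 2.89 with IIAEK and at 2.74, 2.73 and 2.76 on vehicle. In wild-type mice, Hnf4g was at 3.20, 2.93 and 2.37 with IIAEK and at 3.62, 3.33 and 3.23 on vehicle. The 3 wild-type vehicle arrays lay above every other array, and the other 3 groups overlapped. Of all genes, 25.3% lay apart between the wild-type groups and 23.7% between the genotypes on vehicle, in either direction. Against wild-type mice on vehicle, Hnf4g was 1.56-fold lower in knockout mice on vehicle (log2 change -0.65 ± 0.21 SE, unadjusted p = 0.00907, adjusted p = 0.423). It was 1.47-fold lower in wild-type mice given IIAEK (log2 change -0.56 ± 0.21, unadjusted p = 0.0198, adjusted p = 0.369). Both differences kept their sign on each slide, at -0.88 and -0.52 for genotype and -0.42 and -0.63 for IIAEK on slides 1 and 2, where the IIAEK value of slide 1 is 1 array against 1. The interaction was 0.74 ± 0.29 (adjusted p = 0.315), since IIAEK minus vehicle was 0.18 in knockout mice. The IIAEK difference in wild-type mice was -0.33 without the third IIAEK mouse and -0.74 without the first.

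Smooth muscle genes moved with Hnf4g in the opposite direction. The centred mean of 11 smooth muscle genes was -0.30 to 0.25 in knockout mice with IIAEK, -0.19 to 0.27 in knockout mice on vehicle, -0.11 to 0.98 in wild-type mice with IIAEK, and -0.80 to -0.18 in wild-type mice on vehicle. Over the 12 arrays Hnf4g and this mean had r = -0.76 (rho = -0.68; r = -0.76 without the 2 arrays farthest in Hnf4g). All 11 smooth muscle genes were above 0 for IIAEK in wild-type mice, with a median log2 change of 0.9 against -0.06 over all genes, and 0 of the 11 passed the adjusted threshold. For knockout against wild type on vehicle 10 of 11 were above 0, with a median of 0.69 beside -0.04 over all genes, and again 0 passed. Arrays share depth, slide and the make-up of the tissue piece, and the part of muscle content in the Hnf4g values was not tested. In whole jejunum, fewer cells of a type and less RNA per cell cannot be told apart.

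Onecut2, the cut factor of the proximal small intestine, overlapped between all groups. In knockout mice, Onecut2 was at 3.68, 3.72 and 3.25 with IIAEK and at 3.71, 3.73 and 3.38 on vehicle. In wild-type mice, Onecut2 was at 3.76, 3.58 and 3.87 with IIAEK and at 3.88, 3.58 and 3.42 on vehicle. The lowest array was a knockout mouse given IIAEK and the highest a wild-type mouse on vehicle. The largest of its 4 differences between groups, knockout minus wild type on IIAEK, was -0.19 ± 0.18 (SE), with a 95% interval of -0.58 to 0.20 and an adjusted p of 0.755.

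Pdx1, the factor of duodenum and pancreas, was near background and varied most. In knockout mice, Pdx1 was at -4.75, -5.50 and -5.99 with IIAEK and at -3.95, -4.55 and -4.11 on vehicle. In wild-type mice, Pdx1 was at -4.81, -3.31 and -2.23 with IIAEK and at -4.76, -4.02 and -5.79 on vehicle. It was well above background on 9 of 12 arrays: 1 of 3 knockout arrays with IIAEK, 3 of 3 knockout arrays on vehicle, 3 of 3 wild-type arrays with IIAEK and 2 of 3 on vehicle. Pdx1 was tested only because of the groups at 3 of 3, which also had its highest means, at -4.20 (knockout on vehicle) and -3.45 (wild type with IIAEK). Its differences from them are therefore not independent of the filter. The IIAEK arrays lay below the vehicle arrays in knockout mice, and the groups overlapped in the other comparisons. With IIAEK, knockout minus wild type was -1.96 ± 0.60 on the log2 scale (SE; unadjusted p = 0.00707, adjusted p = 0.647), with 2 of the 3 knockout arrays not well above background. IIAEK minus vehicle was -1.21 ± 0.60 in knockout mice (adjusted p = 0.91) and 1.40 ± 0.60 in wild-type mice (adjusted p = 0.373), and the interaction was -2.61 ± 0.85 (adjusted p = 0.31). With normexp background correction these values were smaller, at -0.73 for knockout minus wild type on IIAEK, -0.41 and 0.53 for IIAEK in knockout and in wild-type mice, and -0.95 for the interaction. B cell genes also lay apart between the knockout groups: the centred mean of 5 of them was -1.97 to -1.31 in knockout mice with IIAEK and 1.495 to 2.07 in knockout mice on vehicle, and their part in the Pdx1 values was not tested.

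The Pdx1 differences leaned on slide 2 and on the third wild-type mouse given IIAEK. Within slide 1, knockout minus wild type on IIAEK was -0.31 and IIAEK minus vehicle in wild-type mice was -0.05; within slide 2 they were -3.22 and 2.13. That mouse held both the highest Pdx1 and the highest exocrine pancreas mean. Without it the genotype difference on IIAEK was -1.35 and the IIAEK difference in wild-type mice was 0.79, and leaving out also the knockout vehicle mouse high in pancreas genes changed neither value, since that mouse enters neither difference. Of the 12 exocrine genes 11 were tested. Their mean ranged from -2.11 to -1.36 in knockout mice with IIAEK, from -2.22 to 3.46 in knockout mice on vehicle, from -1.87 to 7.89 in wild-type mice with IIAEK and from -1.12 to 0.68 in wild-type mice on vehicle.

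Over the 12 arrays Pdx1 and the exocrine mean had r = 0.75, with rho = 0.48 and r = 0.40 without the 2 arrays farthest in Pdx1. The acinar gene Cela2a, an elastase, ranged from -2.60 to 9.13 over the arrays and was well above background on 12 of 12. Ptf1a, the acinar transcription factor, was well above background on 1 of 12 arrays. Of the islet genes, Nkx6-1 and G6pc2 were on 0 of 12, Ins2 on 1 and Ins1 on 5, and Iapp was above background on 12 of 12 at -2.71 to -1.16. The knockout vehicle mouse with the second highest pancreas mean had Pdx1 at -4.11, between the other mice of its group. The part of pancreas RNA in the Pdx1 values was not tested.

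**Figure D2:**
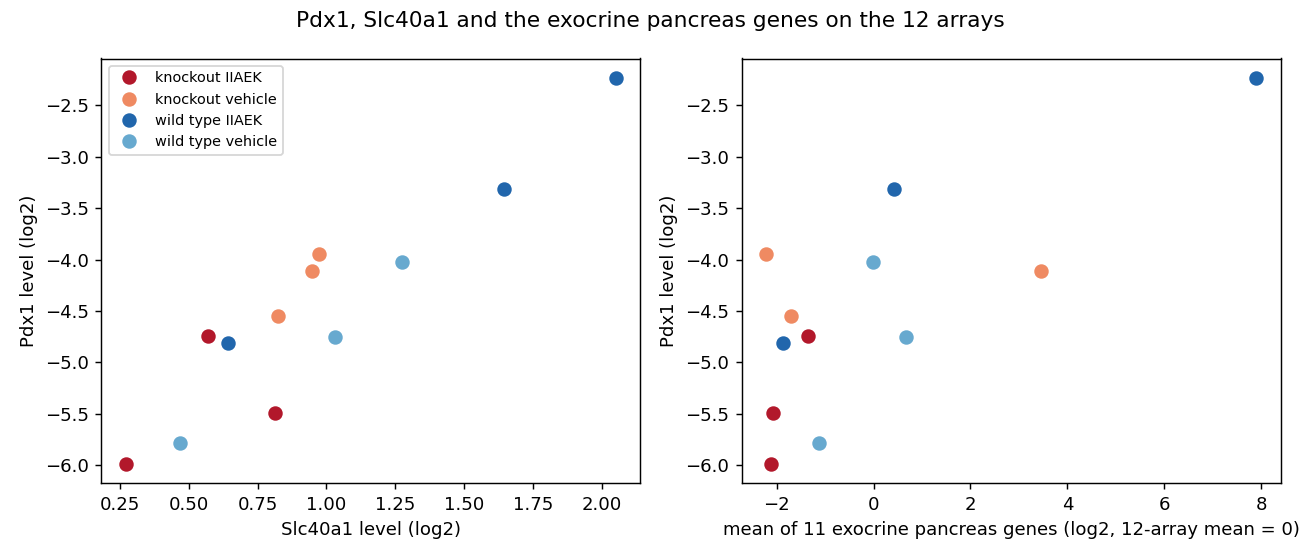
Pdx1 level (log2, vertical axes) on the 12 arrays against the level of Slc40a1 (left) and the centred mean of 11 exocrine pancreas genes (right), coloured by group. Over the 12 arrays Pdx1 and Slc40a1 have r = 0.93, or 0.82 without the 2 arrays farthest in Pdx1. The point at the top right of the right panel is the third wild-type mouse given IIAEK, at 7.89 on the pancreas axis.

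Factors whose 3 arrays all lay on one side of the other group's 3 were counted, beside the same share over all genes. With IIAEK against vehicle, 1 of 8 lay apart in knockout mice (Pdx1, lower), where 7.55% of all genes did, and 1 in wild-type mice (Hnf4g, lower), where 25.3% did. The knockout vehicle group is among those through which Pdx1 passed the filter, so its separation there is a description only. For knockout against wild type, 0 lay apart on IIAEK, where 9.42% of all genes did, and 3 on vehicle (Cdx1 higher, Gata6 and Hnf4g lower), where 23.7% did. In order of group means, Hnf4g in wild-type mice on vehicle was set off from the next group by 0.46, and for the other 7 factors each group overlapped its neighbour in the order.

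**Figure D3:**
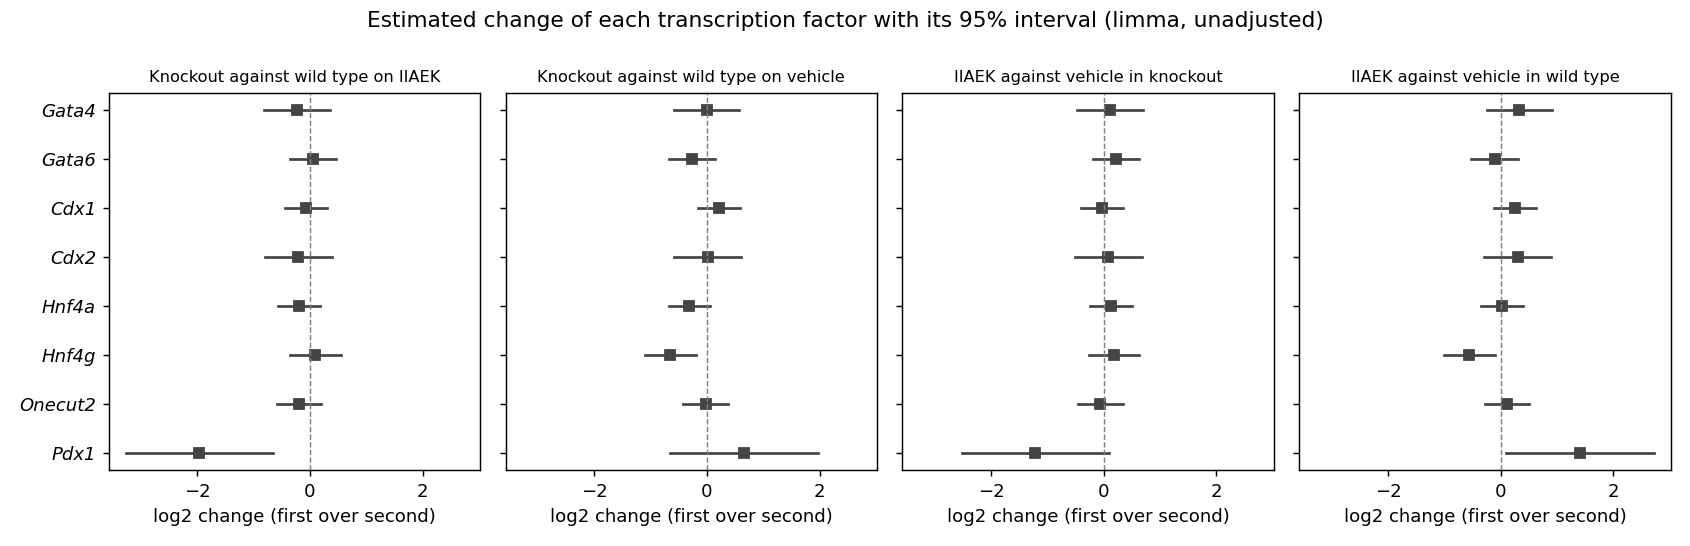
Log2 change of each factor with its unadjusted 95% interval (limma), for knockout against wild type on IIAEK and on vehicle and for IIAEK against vehicle in knockout and in wild-type mice; the vertical line is 0. The intervals of Hnf4g for genotype on vehicle and for IIAEK in wild type, and of Pdx1 for genotype on IIAEK and for IIAEK in wild type, leave out 0, and none has an adjusted p under 0.05.

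As a group the 8 factors had a median log2 change of 0.09 with IIAEK in knockout mice and 0.18 in wild-type mice, beside medians of 0.006 and -0.06 over all genes. For knockout against wild type the medians were -0.19 on IIAEK and -0.01 on vehicle, beside 0.02 and -0.04 over all genes. With IIAEK 5 of 8 were above 0 in knockout mice and 6 of 8 in wild-type mice, and 2 and 3 of 8 were above 0 for genotype on IIAEK and on vehicle. Without the 2 arrays high in pancreas genes the medians were -0.03 and 0.10 for IIAEK in knockout and in wild-type mice, and -0.10 and 0.13 for genotype on IIAEK and on vehicle.

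Gata4 and Cdx2 went together from mouse to mouse. Over the 12 arrays their levels had r = 0.90 (rho = 0.92), with r = 0.82 without the 2 arrays farthest in Gata4 and r = 0.88 after each group's mean was removed. The correlation was 0.92 on the 6 arrays of slide 1 and 0.88 on the 6 of slide 2, and 0.85 without the 2 arrays high in pancreas genes. Hnf4a followed both less closely, at r = 0.69 with Cdx2 and 0.67 with Gata4. These were 0.42 without the 2 arrays farthest in Cdx2 and 0.58 without the 2 farthest in Gata4. Without the 2 arrays high in pancreas genes they were 0.51 and 0.48. Between paralogs, r was 0.30 for Gata4 and Gata6, 0.27 for Cdx1 and Cdx2 and 0.05 for Hnf4a and Hnf4g. Cdx1 was closest to Onecut2, at 0.67, dropping to 0.29 without the 2 arrays farthest in Cdx1. Within slides the Cdx1 and Onecut2 correlation changed sign, at -0.705 on slide 1 and 0.763 on slide 2. Gata6 was closest to Hnf4g, at 0.57. Pdx1 and its neighbour Cdx2 had r = 0.40.

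Cdx2, Gata4 and Hnf4a also went with general epithelial genes such as Epcam, Cdh1 and the keratins. With the mean of 8 such genes, which ranged from -0.16 to 0.26 over the arrays, r was 0.86 for Cdx2, 0.83 for Gata4 and 0.76 for Hnf4a, against 0.32 for Cdx1, 0.30 for Pdx1, 0.25 for Onecut2, 0.18 for Gata6 and -0.30 for Hnf4g. The part of epithelial content in the shared variation was not tested. All these correlations describe 12 arrays that share 2 slides and 4 groups.

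**Figure D4:**
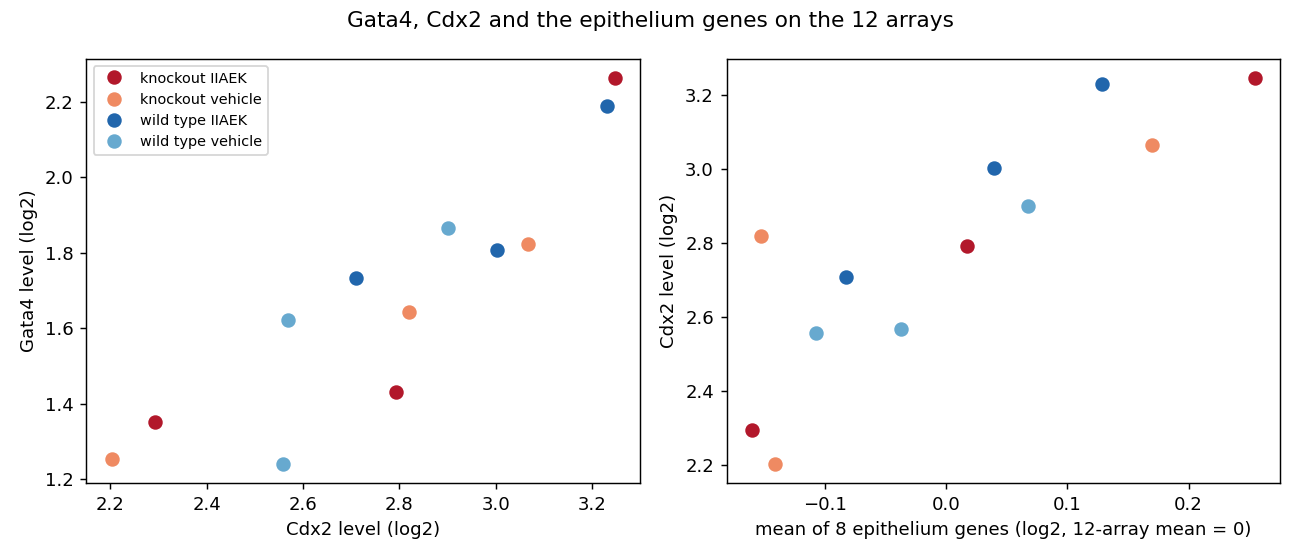
Gata4 against Cdx2 level (left) and Cdx2 level against the centred mean of 8 epithelium genes (right), all log2, for the 12 arrays coloured by group. Points of all 4 groups lie along one rising band in both panels (r = 0.90 and 0.86).

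For each factor the named genes most like it, up to 3, were taken by Pearson's r over the 12 arrays among 14721 genes; being the highest of so many, these values are descriptions. For Cdx2 they were Spryd3 (r = 0.97), Ptprh (0.94), a receptor tyrosine phosphatase, and Sdc1 (0.93), the proteoglycan syndecan-1. Gata4 was closest to Apeh (0.96), an acylpeptide hydrolase, Tspan7 (0.95) and Pkp3 (0.95), a desmosomal plakophilin. Cdx1 was closest to the respiratory complex I subunit Ndufv1 (0.94), Park7 (0.94) and Pafah2 (0.94), and Onecut2 to the ATP synthase subunit Atp5g1 (0.93) and Lsm11 (0.93). Hnf4g was closest to the glucuronosyltransferase Ugt2b34 (0.93), Pum2 (0.92) and Prmt9 (0.92), Hnf4a to the zinc transporter Slc39a9 (0.91), Tpd52 (0.88) and Tmbim1 (0.86), and Gata6 to Atf2 (0.91), Bola1 (0.90) and Hopx (0.88).

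Pdx1 was closest to Slc40a1 (0.93), which encodes the iron exporter ferroportin of proximal enterocytes, Prdm16 (0.93) and Nsf (0.93). In knockout mice, Slc40a1 was at 0.57, 0.81 and 0.27 with IIAEK and at 0.97, 0.82 and 0.95 on vehicle. In wild-type mice, Slc40a1 was at 0.64, 1.65 and 2.05 with IIAEK and at 1.03, 1.27 and 0.47 on vehicle. The same mouse was thus highest in both genes. Without the 2 arrays farthest in Pdx1, r was 0.82. Slc40a1, like Pdx1, differed mainly on slide 2. IIAEK minus vehicle in wild-type mice was -0.39 within slide 1 and 0.98 within slide 2. Knockout minus wild type on IIAEK was 0.05 and -1.58. The correlation within each slide was not computed for this pair. With the mean of 10 proximal enterocyte genes, a list that includes Slc40a1, Pdx1 had a lower r of 0.36. With single other proximal genes r was 0.31 for Cybrd1 and -0.22 for Lct.

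Position along the gut was read from enterocyte genes known to be highest in proximal or in distal small intestine. The mean of 10 proximal genes stayed within -0.40 to 0.32 over the arrays and that of 6 distal genes within -0.71 to 0.67, both log2 and centred. The proximal mean was -0.07 ± 0.21 (SD, n = 3) in knockout mice with IIAEK, -0.09 ± 0.29 in knockout mice on vehicle, 0.17 ± 0.16 in wild-type mice with IIAEK and -0.01 ± 0.13 in wild-type mice on vehicle. The distal mean was -0.04 ± 0.19 in knockout mice with IIAEK, 0.07 ± 0.34 in knockout mice on vehicle, -0.34 ± 0.43 in wild-type mice with IIAEK and 0.30 ± 0.35 in wild-type mice on vehicle (SD, n = 3 each). Over the 12 arrays the means had r = -0.32 (rho = -0.31).

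**Figure D5:**
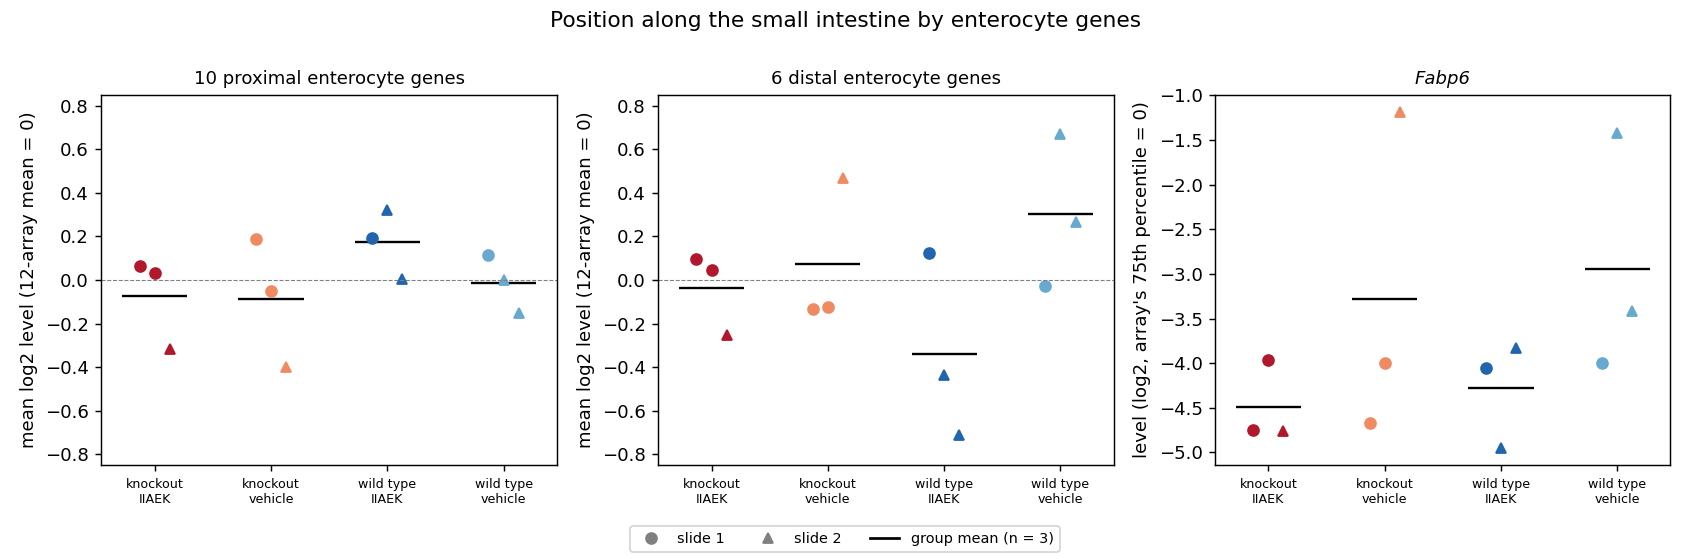
Centred mean log2 level of 10 proximal (left) and 6 distal enterocyte genes (middle) and the level of Fabp6 (right) on each array, with knockout left of wild type and IIAEK left of vehicle; bars are group means and symbols mark the slide. Distal means run from -0.71 in a wild-type mouse given IIAEK to 0.67 in a wild-type mouse on vehicle, and Fabp6 is high in 1 knockout and 1 wild-type mouse on vehicle.

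In wild-type mice given IIAEK, 0 of 6 distal genes had a change above 0, with a median of -0.59 beside -0.06 over all genes, while 5 of 10 proximal genes were above 0, with a median of 0.10. Without the third of these mice, which was high in pancreas genes, 1 of 6 distal genes was above 0, with a median of -0.23. Then 7 of 10 proximal genes were above 0, with a median of 0.17. No gene of either list passed the adjusted threshold there. Slc51b, the beta chain of the exporter that passes bile acids to the blood, had the smallest p: its log2 change was -0.85 ± 0.18 (SE; unadjusted p = 0.000682, adjusted p = 0.369). In knockout mice, Slc51b was at 3.29, 3.46 and 3.00 with IIAEK and at 3.36, 2.92 and 3.40 on vehicle. In wild-type mice, Slc51b was at 3.31, 3.16 and 2.96 with IIAEK and at 3.78, 4.03 and 4.17 on vehicle. The 3 wild-type vehicle arrays lay above all others, as for Hnf4g. Wild-type vehicle arrays lay apart from wild-type IIAEK arrays for 25.3% of all genes and from knockout vehicle arrays for 23.7%. The shared order is therefore not read as a link between Slc51b and Hnf4g. In knockout mice 4 of 6 distal genes were above 0 with IIAEK, with a median of 0.02, and 3 of 10 proximal genes, with a median of -0.10. Without the third knockout vehicle mouse, also high in pancreas genes, 2 of 6 distal genes were above 0, with a median of -0.095.

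Single regional markers placed the pieces as follows. Fabp6, the ileal bile acid binding protein, was high in 2 mice on vehicle. In knockout mice, Fabp6 was at -4.75, -3.96 and -4.76 with IIAEK and at -4.67, -3.99 and -1.18 on vehicle. In wild-type mice, Fabp6 was at -4.06, -4.96 and -3.83 with IIAEK and at -3.99, -1.42 and -3.41 on vehicle. IIAEK minus vehicle was -1.21 ± 0.83 (SE) in knockout mice and -1.34 ± 0.83 in wild-type mice, with adjusted p-values of 0.91 and 0.45. Each value rested on the one high mouse: it was -0.16 in knockout mice without the third vehicle mouse and -0.58 in wild-type mice without the second. Within slides 1 and 2 it was -0.03 and -3.58 in knockout mice and -0.06 and -1.97 in wild-type mice.

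Slc10a2, whose window is printed above, was at -3.26 and -3.83 on the arrays high in Fabp6, the highest of each of those groups. In knockout mice, Slc10a2 was at -3.26, -3.92 and -3.00 with IIAEK and at -4.22, -4.48 and -3.26 on vehicle. In wild-type mice, Slc10a2 was at -3.95, -3.72 and -5.24 with IIAEK and at -3.90, -3.83 and -4.09 on vehicle. The lowest array was the third wild-type mouse given IIAEK, in which Pdx1 was highest. Knockout minus wild type on IIAEK was 0.91 ± 0.41 (SE; adjusted p = 0.647), the smallest p among distal genes in that comparison. It was 0.44 without that mouse, and 0.36 and 1.48 within slides 1 and 2.

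Lct was high in every mouse. In knockout mice, Lct was at 7.72, 7.26 and 6.89 with IIAEK and at 7.38, 7.40 and 7.37 on vehicle. In wild-type mice, Lct was at 7.46, 7.06 and 6.48 with IIAEK and at 7.15, 7.24 and 6.78 on vehicle. Knockout minus wild type was 0.29 ± 0.26 (SE) on IIAEK and 0.33 ± 0.26 on vehicle (adjusted p = 0.743 and 0.599), and the genotypes overlapped on IIAEK but not on vehicle. On IIAEK the Lct difference was 0.03 without the third wild-type mouse. Cybrd1, the duodenal ferric reductase, was at -2.36, -2.65 and -1.93 in knockout mice with IIAEK and at -2.47, -2.57 and -2.06 in knockout mice on vehicle. In wild-type mice, Cybrd1 was at -2.27, -2.28 and -2.14 with IIAEK and at -2.49, -2.63 and -3.04 on vehicle, with no overlap and a log2 change of 0.49 ± 0.21 (adjusted p = 0.375).

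The tissue label was set against genes of other gut regions. Of 11 stomach genes on the array, 3 were tested and the other 8, among them Gkn1, Atp4a and Sox2, were not well above background on all arrays of any group. Tff2, a trefoil peptide of stomach and Brunner's glands, ranged from -7.31 to 3.13 and was above background on 7 of 12 arrays. The other tested genes, Gkn3 and Cblif, were above background on 12 of 12, at -0.25 to 1.02 and -4.18 to -3.28. The centred mean of the 3 was highest, at 2.56, in the third wild-type mouse given IIAEK, and next highest at 0.93. With Pdx1 this mean had r = 0.70 (rho = 0.48, and r = 0.21 without the 2 arrays farthest in Pdx1), and its part in the Pdx1 values was not tested. The posterior genes Hoxd10, Hoxd13 and Hoxb13 and the ileal hormone gene Fgf15 were likewise too near background to be tested. The colon genes Car1 and Aqp8 were above background on 12 of 12 arrays, at -2.73 to -1.86 and -2.83 to -0.05. The pieces also differed in lymphoid genes, with the centred mean of 5 B cell genes ranging from -1.42 to 2.09 in wild-type mice with IIAEK and from -1.96 to 1.62 in wild-type mice on vehicle.

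Of the paralogs and cofactors of these families, 7 of 9 were tested and Cdx4 and Onecut3 were not. Gata5 was well above background on 12 of 12 arrays at -0.89 to -0.52. None of the 7 passed the adjusted threshold in any comparison. Gata2, a GATA factor of blood and stroma, had the smallest p, with a log2 change of 0.65 ± 0.17 (SE) for knockout against wild type on vehicle (adjusted p = 0.423), and the GATA cofactor Zfpm1 was at -0.77 ± 0.30 for knockout against wild type on IIAEK (adjusted p = 0.647). Among 25 other epithelial transcription factors, likewise none passed. With IIAEK in wild-type mice, Maf, a regulator of the villus programme, was at -0.55 ± 0.19 (SE; adjusted p = 0.369) and Elf3, an epithelial ETS factor, at 0.87 ± 0.39 (adjusted p = 0.383). The Elf3 value was 0.53 without the third IIAEK mouse. The median of the 25 was -0.13 in that comparison.

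Known targets of the factors were described as lists. None of 6 GATA4, 10 CDX or 9 HNF4 targets passed the adjusted threshold in any comparison. With IIAEK in wild-type mice, 1 of 6 GATA4 targets, 3 of 10 CDX targets and 1 of 9 HNF4 targets were above 0, with medians of -0.24, -0.16 and -0.24 beside -0.06 over all genes. At an unadjusted p under 0.05 (limma), 0 GATA4 targets were higher and 2 lower, 0 CDX targets were higher and 2 lower, and 1 HNF4 target was higher and 1 lower. Examples of the lower genes were Sis, sucrase-isomaltase, at -0.41 ± 0.15 (SE), and Fabp2, a fatty acid binding protein, at -0.36 ± 0.14. Mep1a, the brush border protease meprin, was at -0.85 ± 0.32, and all 3 had an adjusted p of 0.369. Without the third IIAEK mouse the GATA4 and HNF4 medians were -0.15 and -0.06, and Mep1a was at -0.53. For knockout against wild type on vehicle, the CDX targets Krt20, Cdh17 and Heph were at -0.42 ± 0.15, -0.50 ± 0.18 and -0.40 ± 0.17 (adjusted p = 0.423, 0.423 and 0.435). There 4 of 10 CDX targets were above 0, with a median of -0.20 beside -0.04 over all genes. Without the third knockout vehicle mouse 5 of 10 were above 0, with a median of -0.123. With IIAEK in knockout mice the medians of the 3 lists were -0.07, 0.13 and -0.01, and for knockout against wild type on IIAEK they were 0.19, 0.14 and 0.09. Without the 2 arrays high in pancreas genes they were -0.013, 0.088 and 0.069 with IIAEK in knockout mice. For genotype on IIAEK they were then 0.043, 0.065 and -0.016.

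The level of each factor was set against the mean of its own targets over the 12 arrays. The correlation was -0.18 for Gata4 with GATA4 targets, 0.22 for Cdx2 and -0.22 for Cdx1 with CDX targets, and -0.04 for Hnf4a with HNF4 targets. Hnf4g had r = 0.59 with HNF4 targets (rho = 0.57), which dropped to 0.15 without the 2 arrays farthest in Hnf4g, and r = 0.72 with GATA4 targets, a list that shares Fabp1, Fabp2 and Apoa4 with the HNF4 list. Target means moved little in all, from -0.21 to 0.19 for GATA4, -0.21 to 0.20 for CDX and -0.27 to 0.13 for HNF4 targets. In the sequence table, 2 of 6 windows of distal genes and 4 of 9 windows of proximal genes held a GATA match, and 2 of 6 and 1 of 9 held a CDX match.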

How the data were processed

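Jejunum RNA of 12 mice was labelled with Cy3 and read on 1-colour Agilent arrays. Per the file headers, Feature Extraction 10.7.3.1 gave the deposited processed intensity of each spot, with the background already subtracted. The deposited value table holds log2 values of the same arrays, centred per probe, as set against the scanner values here (r = 0.9997 to 0.9999); it was used as an alternative.

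Levels were log2 of the processed intensity minus each array's 75th percentile over 59305 spots, with control spots and outlier spots left out and spots of a probe averaged. Accessions were named through RefSeq (GRCm38.p6), which named 32994 of 56605 probes. The array's annotation was of another build, so no gene coordinates are printed from it. Each gene was represented by its brightest probe and tested if 1 or more of the groups had it well above background on each of its 3 arrays. A model of 4 group means was fitted with limma 3.58.1 (R 4.3.3) to all 27565 genes, with 8 residual and 3.37 prior degrees of freedom and Benjamini-Hochberg adjustment over all of them.

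The members and lists were chosen with earlier results of these data known. Named genes were all members, for each the 3 genes of highest r, up to 4 genes of smallest p per list, Slc10a2, Fabp6, Cybrd1, Lct and Akp3; Cela2a, Ptf1a, Tff2, Gata5, Car1, Aqp8 and the islet genes were added after their values were seen. Some genes that this rule names are not reported here. Alternatives varied background correction, scaling, filter, probe choice, slide, samples and arrays left out. Promoter windows are from RefSeq's table.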

Additional observations from a re-analysis of the deposited data

How the results depend on the processing

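No member passed the adjusted threshold under any alternative, and the lowest adjusted p of a member was 0.117, for the Pdx1 interaction. Of the members' log2 changes recomputed with a test, 1202 kept their sign and 62 reversed. Without the 2 arrays highest in pancreas genes, a choice made after seeing the data, the average IIAEK effect was -0.064 for Onecut2 and -0.185 for Pdx1, and the average genotype effect 0.095 for Cdx2 and 0.034 for Gata4. In the same setting, IIAEK in knockout mice was -0.166 for Cdx2 and -0.05 for Gata4, and IIAEK in wild-type mice 0.031 for Gata6 and -0.068 for Hnf4a. Genotype on IIAEK was 0.038 for Cdx1, -0.076 for Gata6 and -0.136 for Hnf4g, and genotype on vehicle 0.157 for Gata4 and 0.096 for Onecut2. Normexp gave 0.013 for Cdx1 (IIAEK, knockout) and -0.005 for Cdx2 (genotype, vehicle). Scaling to the array median gave 0.048 for Cdx1 and 0.013 for Onecut2 (IIAEK, knockout) and -0.007 for Cdx2 (genotype, vehicle). Averaging probes gave -0.025 for Hnf4a (IIAEK, wild type). Quantile normalization gave -0.028 for Hnf4a (interaction), 0.024 for Gata4 and 0.066 for Onecut2 (genotype, vehicle). The slide as a block gave -0.034 for Gata6 (genotype, IIAEK) and -0.028 for Cdx2 (genotype, vehicle). The cause of these reversals was not tested.

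Leaving out each array in turn, the average IIAEK effect ranged from -0.025 to 0.141 for Gata6, -0.031 to 0.101 for Onecut2 and -0.21 to 0.44 for Pdx1, and the average genotype effect of Cdx2 from -0.208 to 0.032. IIAEK in knockout mice ranged from -0.13 to 0.15 for Cdx1, -0.17 to 0.32 for Cdx2, -0.18 to 0.28 for Gata4 and -0.174 to 0.089 for Onecut2, and IIAEK in wild-type mice from -0.21 to 0.031 for Gata6 and -0.068 to 0.092 for Hnf4a. The Cdx2 interaction ranged from -0.471 to 0.018. Genotype on IIAEK ranged from -0.17 to 0.11 for Cdx1, -0.438 to 0.039 for Cdx2, -0.093 to 0.24 for Gata6 and -0.14 to 0.28 for Hnf4g, and genotype on vehicle from -0.16 to 0.27 for Cdx2, -0.17 to 0.16 for Gata4 and -0.12 to 0.11 for Onecut2.

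The count of genes called for the average genotype effect, 1 as reported, was 2 with averaged probes, with normexp and with the array median, 4 with quantile normalization and with a variance trend, and 0 without the 2 pancreas-high arrays, and 0 to 10 leaving out an array. Fitting only the 2 groups compared called 14 genes for IIAEK in knockout mice, 4 for genotype on IIAEK and 1 for genotype on vehicle, and the slide block called 1 for IIAEK in wild-type mice and 1 for genotype on IIAEK. Leaving out an array called 0 to 1 genes for IIAEK in wild-type mice, 0 to 2 for genotype on IIAEK and on vehicle and 0 to 1 for the average IIAEK effect. Without the filter on dim probes the median of all genes moved by 0.14 for genotype on vehicle and by -0.12 for the interaction. Between groups, deviations from the group means correlated at -0.25 to 0.35 for arrays with the same replicate number (median 0.066). For different numbers the range was -0.40 to 0.38 (median -0.005). These overlapping ranges do not decide whether replicate numbers pair the samples. With replicate numbers as a block, 1 gene was called for the average genotype effect and 0 in the other comparisons. Hnf4g for genotype on vehicle then had an adjusted p of 0.415. Precision is limited by the 3 arrays per group and, for Pdx1, by signal near background.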
